A study of Mus musculus with 6 samples.

Results

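The miR-290 locus of mouse embryonic stem cells (ESCs) was examined as the set of H3K27ac peaks on chromosome 7 that overlap a 110 kb window holding the microRNA (miRNA) genes Mir290a to Mir295 and the gene AU018091. The window held 10 of the 31131 peaks deposited, from chr7:3167731 to chr7:3233275 on mm10 (GRCm38), and all 10 passed the threshold of 0.5 RPKM (reads scaled to peak length in kilobases and to the mapped reads of the library) that left 26457 peaks for testing. Members were taken from the deposited peaks by position in the window, and the window itself was chosen with earlier results of these data known. The deposited peaks were called on the pooled uninduced reads alone. That favours peaks high in this group, which tilts counts of lower peaks here towards falls. A region acetylated only after IAA could not enter. Of the 10 peaks, 8 carried the authors' mark for an OCT4 binding site within 1 kb, taken from published ChIP-seq of other cell cultures.

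H3K27ac ChIP-seq was performed on O4AID ESCs of strain 129SV. Of the 6 libraries, 3 represented uninduced cells and 3 represented cells exposed to 500 μM indole-3-acetic acid (IAA, an auxin) for 1.5 h. The cells of all 6 libraries were Oct4-/- and carried a TetOFF Oct4 transgene, CAG-driven Oct4AID and CAG-driven Tir1. Both endogenous Oct4 alleles are lost in these cells, and doxycycline kept the wild-type TetOFF Oct4 transgene silent in both groups. OCT4 came from a degron-tagged transgene under the ubiquitous CAG promoter, and the auxin receptor TIR1, also expressed from CAG, directs the tagged protein to the proteasome once IAA is present. Cells were cultured in N2B27 with PD03, Chiron and LIF in both groups. The libraries hold no IAA-treated cells without tagged OCT4, so IAA itself and the loss of OCT4 cannot be told apart in them, and OCT4 was not measured in them. The 3 libraries of a group are independent immunoprecipitations, and the labels do not say whether each had its own culture, so p-values measure the spread between these immunoprecipitations.

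The miR-290 cluster is transcribed as one primary RNA and is among the most abundant miRNA sources of mouse ESCs. Its miRNAs share a seed with the miR-302 family and are known to promote the G1 to S transition by repressing cell cycle inhibitors such as Cdkn1a. OCT4, SOX2 and NANOG are known to bind around the cluster and upstream of it. Acetylation of histone H3 at lysine 27 (H3K27ac) marks active enhancers and promoters, and the comparison asks how much of it remained at the locus shortly after OCT4 was removed.

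The RefSeq table used here is not complete. It gave 17 mature miRNAs from the 9 hairpins of the cluster, with 11 distinct seeds (bases 2 to 8). The shared seed is what relates the cluster to other families, so arms are shown here grouped by it, written 5′ to 3′ with the seed in capitals. In 5 of these 17, bases 2 to 7 read AAGUGC:
miR-290a-3p: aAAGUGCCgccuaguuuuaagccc
miR-291a-3p: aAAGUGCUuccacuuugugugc
miR-291b-3p: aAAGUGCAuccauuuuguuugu
miR-294-3p: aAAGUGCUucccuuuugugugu
miR-295-3p: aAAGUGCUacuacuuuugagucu
The complete seed AAGUGCU occurred in 3 of these, and in 5 of the 1679 mature sequences of that table (GRCm38.p6), which adds these from chromosome 3:
miR-302b-3p: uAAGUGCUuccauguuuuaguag
miR-302d-3p: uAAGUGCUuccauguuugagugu
The 5p arms of 3 hairpins shared a different seed, CUCAAAC:
miR-290a-5p: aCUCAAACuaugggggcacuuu
miR-292a-5p: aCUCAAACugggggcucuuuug
miR-293-5p: aCUCAAACugugugacauuuug

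Acetylation was distributed unevenly over the locus. Its longest peak, chr7:3217913-3219796 (1883 bp), contained the hairpins of 6 miRNA genes (Mir290a, Mir290b, Mir291a, Mir291b, Mir292 and Mir292b) and is called the cluster peak here. It overlapped the end of Nlrp12, a gene of the NOD-like receptor family that lies on the opposite strand. The hairpins of Mir293, Mir294 and Mir295 lay beyond its downstream edge, with Mir293 beginning 547 bp past it. A further 7 peaks marked as near an OCT4 site lay upstream of the cluster peak, with midpoints 25.1, 24.1, 18.1, 16.4, 11.6, 5.41 and 4.52 kb before the first base of Mir290a, in sequence that GENCODE vM21 annotates as intergenic. The remaining 2 peaks had no OCT4 mark. One, chr7:3167731-3169174, overlapped the UTR of AU018091 and ended 29 bp short of its annotated 5′ end, and its midpoint was 50.2 kb upstream of Mir290a. The other, chr7:3232868-3233275, lay 14.4 kb downstream over an exon of Nlrp12.

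The cluster peak also covered the start of D7Ertd143e, a RefSeq long noncoding RNA on the plus strand that begins at position 3218784, past the hairpin of Mir290a, and runs over those from Mir291a to Mir295. The 250 bases before that start (chr7:3218534-3218783, plus strand) are shown because they lie inside the peak and hold the hairpin of Mir290a, whose mature arms are in capitals:
cluster peak: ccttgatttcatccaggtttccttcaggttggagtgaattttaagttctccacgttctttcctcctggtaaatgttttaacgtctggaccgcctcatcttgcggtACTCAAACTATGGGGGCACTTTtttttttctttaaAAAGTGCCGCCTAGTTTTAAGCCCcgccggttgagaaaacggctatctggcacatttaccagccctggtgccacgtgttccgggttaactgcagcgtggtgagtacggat

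Before IAA the cluster peak and the 3 upstream peaks nearest to it were among the most strongly acetylated of all peaks tested. Only 1.44% of tested peaks had a higher mean RPKM in uninduced cells than the cluster peak, and only 1.08% exceeded the peak 4.52 kb upstream, which had the highest RPKM of the locus. The shares were 4.28% for the peak 5.41 kb upstream and 2.96% for the peak 11.6 kb upstream. The peak at the start of AU018091 was exceeded by 22.6% of peaks. The lowest of the locus was the peak over the Nlrp12 exon, which 73.5% of tested peaks exceeded, and the peak 25.1 kb upstream was exceeded by 71.4%.

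**Figure D1:**
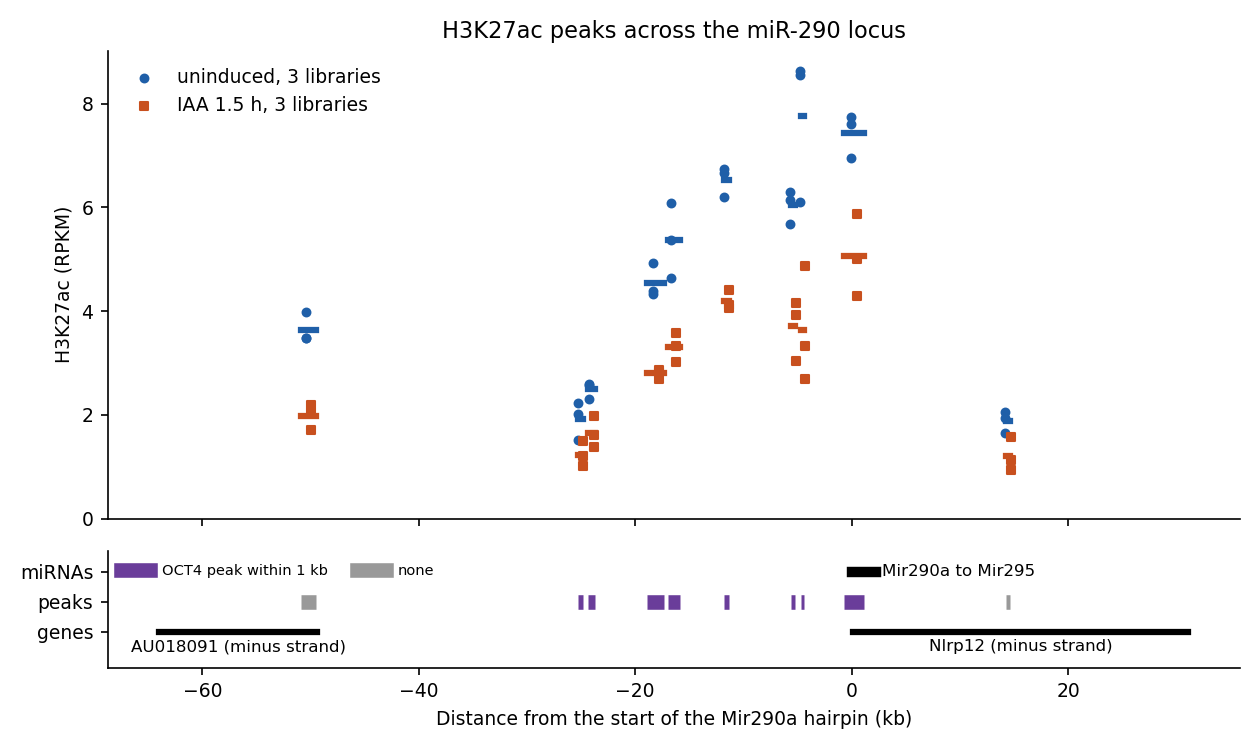
H3K27ac level (RPKM) of each of the 10 peaks in each of the 6 libraries, against the distance in kb from the first base of Mir290a, with peaks near an OCT4 site coloured apart from the others and the genes drawn to scale. The highest levels lie between the peak 11.6 kb upstream and the cluster peak, and at every peak the 3 IAA values lie under the 3 uninduced values.

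At every one of the 10 peaks the 3 IAA values lay below the 3 uninduced values, and all 10 passed the test as lower after IAA (limma on log2(RPKM + 0.1), Benjamini-Hochberg adjusted p between 0.000401 and 0.0237). The same separation of the libraries was seen at 71.2% of all tested peaks, and 68.2% of all tested peaks were called lower, so the locus shared a fall that most peaks showed. Among tested peaks near OCT4 sites 85.2% were called lower. The median log2 change of the 10 peaks was -0.65, beside -0.55 over all tested peaks and -0.71 over the 4662 tested peaks near OCT4 sites.

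The cluster peak fell least of the 10. It measured 7.75, 7.60 and 6.95 RPKM before and 5.87, 5.004 and 4.29 RPKM after IAA. The highest IAA value was thus below the lowest uninduced value, and the means, 7.44 ± 0.423 and 5.05 ± 0.790 (SD, n = 3 each), left 68.0% of the signal. The log2 change was -0.56 (95% interval -0.88 to -0.24, limma adjusted p = 0.00648). Of all tested peaks 48.3% fell further, which places the cluster peak near the middle, and of peaks near OCT4 sites 73.5% fell further.

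The peak 4.52 kb upstream, chr7:3213962-3214252, had the largest fall of the locus. It measured 8.63, 6.10 and 8.55 RPKM in uninduced cells and 3.34, 4.87 and 2.69 RPKM after IAA, so the groups did not overlap but each held one library apart from the other pair. The means were 7.76 ± 1.44 and 3.63 ± 1.12 (SD, n = 3 each), or 46.8% remaining. Its log2 change was -1.10 (95% interval -1.50 to -0.69, limma adjusted p = 0.000401), a fall exceeded by 3.64% of all tested peaks and by 12.2% of peaks near OCT4 sites. At 290 bp it was the shortest peak of the locus, with 56 to 99 reads per uninduced library and 27 to 51 per IAA library.

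The peak at the start of AU018091, which has no OCT4 mark, was second. Its RPKM was 3.98, 3.48 and 3.47 before and 2.19, 2.04 and 1.70 after IAA. The groups were well separated, with means of 3.64 ± 0.289 and 1.98 ± 0.252 (SD, n = 3 each) and 54.2% remaining. The log2 change was -0.86 (95% interval -1.21 to -0.51, limma adjusted p = 0.000891), and 12.05% of all tested peaks fell further.

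The other 6 upstream peaks near OCT4 sites fell by similar amounts, with log2 changes from -0.70 to -0.58. The peak 5.41 kb upstream, which is the neighbour of the peak with the largest fall, measured 6.14, 6.30 and 5.67 RPKM before and 4.15, 3.04 and 3.92 RPKM after IAA. Its log2 change was -0.70 (limma adjusted p = 0.00220). The peak 11.6 kb upstream measured 6.19, 6.67 and 6.73 RPKM before and 4.12, 4.40 and 4.06 RPKM after IAA, with little spread inside either group. Its log2 change was -0.63 (limma adjusted p = 0.00255).

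The adjoining peaks 16.4 and 18.1 kb upstream are separated by 327 bp. The nearer one measured 6.08, 5.37 and 4.64 RPKM before and 3.33, 3.03 and 3.57 RPKM after IAA, a log2 change of -0.67 (limma adjusted p = 0.00275). The farther one measured 4.93, 4.33 and 4.39 RPKM before and 2.83, 2.87 and 2.69 RPKM after IAA, a log2 change of -0.68 (limma adjusted p = 0.00216). The pair therefore changed by nearly the same factor, with 61.7% and 61.5% of the mean signal remaining.

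The 3 weakest peaks of the locus gave the least certain calls. The peak 24.1 kb upstream measured 2.302, 2.59 and 2.58 RPKM before and 1.97, 1.61 and 1.38 RPKM after IAA (log2 change -0.58, limma adjusted p = 0.0139), and without uninduced replicate 2 its adjusted p was 0.0520. The peak 25.1 kb upstream measured 2.23, 2.01 and 1.52 RPKM before and 1.01, 1.49 and 1.20 RPKM after IAA (log2 change -0.60, limma adjusted p = 0.0237). Its groups nearly touched (1.52 and 1.49 RPKM), and leaving out uninduced replicate 1, uninduced replicate 2 or IAA replicate 1 raised the adjusted p to 0.115, 0.0727 or 0.0652. The peak over the Nlrp12 exon measured 2.05, 1.94 and 1.65 RPKM before and 0.936, 1.57 and 1.13 RPKM after IAA (log2 change -0.62, limma adjusted p = 0.0215). Leaving out the same libraries in turn raised its adjusted p to 0.0842, 0.0619 or 0.0663. These 2 peaks had no more than 36 reads in any library, and the counting error of the lowest library was 26.7% and 27.7%.

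**Figure D2:**
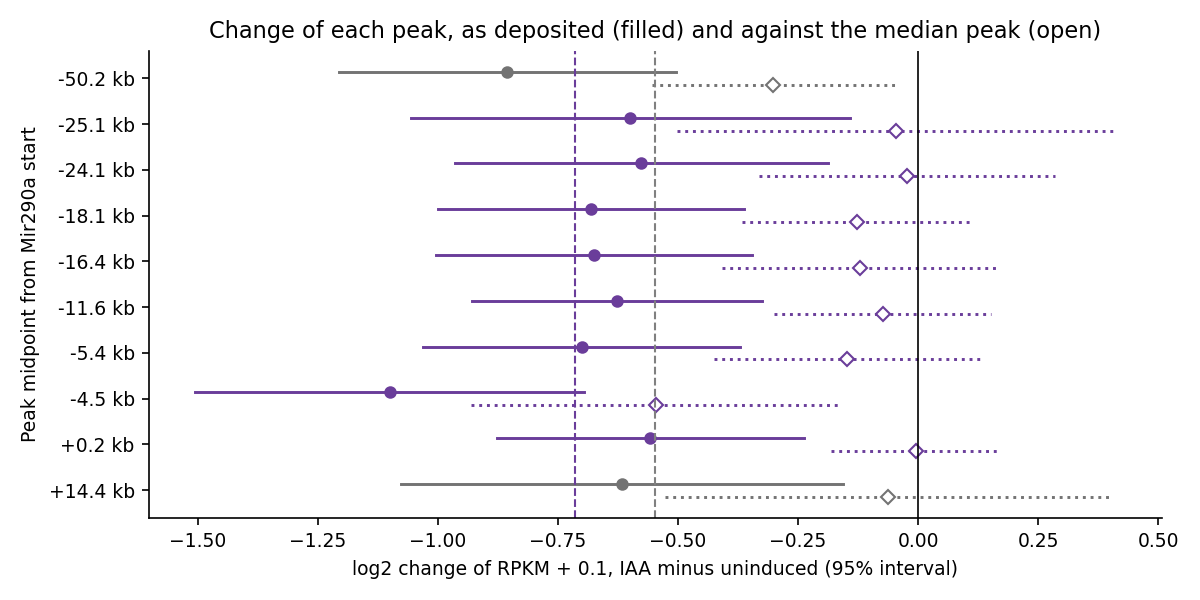
Log2 change of RPKM + 0.1 (IAA minus uninduced, with the 95% interval of limma, n = 3 libraries a group) for each of the 10 peaks, as deposited (filled) and after centring each library on its median tested peak (open). Dashed lines give the median change of all tested peaks (-0.55) and of tested peaks near OCT4 sites (-0.71), and the peak 4.52 kb upstream lies farthest to the left at -1.10.

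The share of reads inside peaks moved with the groups: it was between 6.63% and 7.12% before IAA and between 4.05% and 5.15% after it. No spike-in was used here to set the scale between libraries, so a fall of acetylation at most peaks and a lower recovery of the immunoprecipitation cannot be told apart. Each library was therefore also centred on its median tested peak. After centring, limma called 0 of the 10 peaks lower, beside 1.97% of all tested peaks, and 2 of the 10 had an unadjusted p under 0.05, as did 14.2% of all tested peaks and 28.4% of those near OCT4 sites. Those were the peak 4.52 kb upstream, at -0.55 (95% interval -0.93 to -0.16, adjusted p = 0.147), and the peak at the start of AU018091, at -0.30 (95% interval -0.55 to -0.05, adjusted p = 0.242). The call at the first depended on IAA replicate 2, which had its highest IAA value: without that library its centred change was -0.76 and its adjusted p 0.0208. The centred change of the cluster peak was -0.00423 (95% interval -0.18 to 0.17, limma adjusted p = 0.991), so its fall was close to that of the median peak. The other 7 peaks had centred changes from -0.15 to -0.02. In simulated data without a shared shift, limma without centring recovered 47 of 200 changes of 1 on the log2 scale (23.5%). Recovery after centring was not simulated and may differ, since the standard error of the cluster peak was 0.153 as deposited and 0.0817 centred. How often the centred test misses such a change is thus not known. The 0 calls do not show that no peak of the locus moved apart from the median.

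Pooled over its 10 peaks by length, the locus held 5.30, 4.94 and 4.74 RPKM before and 3.35, 3.15 and 2.86 RPKM after IAA. The groups did not overlap, and 62.5% of the mean remained (4.99 ± 0.287 and 3.12 ± 0.246, SD, n = 3 each), a log2 change of -0.68. Relative to the median tested peak of each library the log2 level was 1.08, 0.99 and 1.00 before and 0.87, 0.91 and 1.00 after IAA, where the groups overlapped and the mean differed by -0.10. The overlap was narrow and lay between IAA replicate 3 (0.997) and uninduced replicate 2 (0.994). The locus took 61.0 to 63.6 of every 100000 reads in peaks before and 55.5 to 60.2 after IAA, without overlap. The 7 upstream peaks near OCT4 sites went from 4.71 ± 0.275 to 2.87 ± 0.0619 RPKM (SD, n = 3 each), a log2 change of -0.71.

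The OCT4 mark did not separate the larger from the smaller falls at this locus. The 8 peaks near an OCT4 site had a median log2 change of -0.65, and the peaks without the mark changed by -0.86 and -0.62. Within each library, the median log2 level of the marked peaks exceeded that of the others by 1.07, 1.11 and 1.07 before and by 1.16, 0.73 and 1.10 after IAA. The groups overlapped and the change was -0.08. Without IAA replicate 2, which gave the value of 0.73, the change was 0.05.

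Within each library, the cluster peak was also compared directly with the peak at the start of AU018091, which cancels any factor common to a library. The log2 difference was 0.94, 1.10 and 0.98 before and 1.38, 1.26 and 1.29 after IAA. The groups did not overlap and the difference grew by 0.30, with p = 0.1 in the exact two-sided permutation test, the smallest that 20 labellings of 3 against 3 libraries allow, so this design cannot reach 0.05. Relative to the cluster peak, this was the one peak of the locus whose IAA and uninduced values did not overlap. The share of all tested peaks with such a separation was not computed, so this does not set the AU018091 peak apart. The peak 4.52 kb upstream had a larger mean change relative to the cluster peak, -0.54, but its log2 differences of 0.15, -0.31 and 0.29 before and -0.80, -0.04 and -0.66 after IAA overlapped.

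Other enhancers known for their activity in pluripotent cells kept a smaller part of their signal. The study plotted the Klf4 and Prdm14 regions from these same libraries as examples of decreased H3K27ac, so their falls were known beforehand. The 7 peaks of the Klf4 distal enhancer, which lies by a gene for a reprogramming factor, had a length-weighted log2 change of -1.14, with 45.6% remaining. The 3 peaks of the Sox2 control region, the distal enhancer of the gene for the DNA-binding partner of OCT4, changed by -1.11 with 46.4% remaining. The 7 peaks of the Prdm14 distal enhancer, by a gene for a regulator of naive pluripotency, changed by -1.05 with 49.0% remaining. Relative to the median tested peak these changes were -0.55, -0.53 and -0.46, and in all 3 regions the IAA and uninduced values did not overlap, whereas those of the miR-290 locus did. At the miR-290 locus that overlap was narrow, with IAA replicate 3 at 0.997 and uninduced replicate 2 at 0.994. The 30 peaks of the 500 kb downstream of the locus, of which 6 had an OCT4 mark, changed by -0.56, and by 0.02 relative to the median peak.

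**Figure D3:**
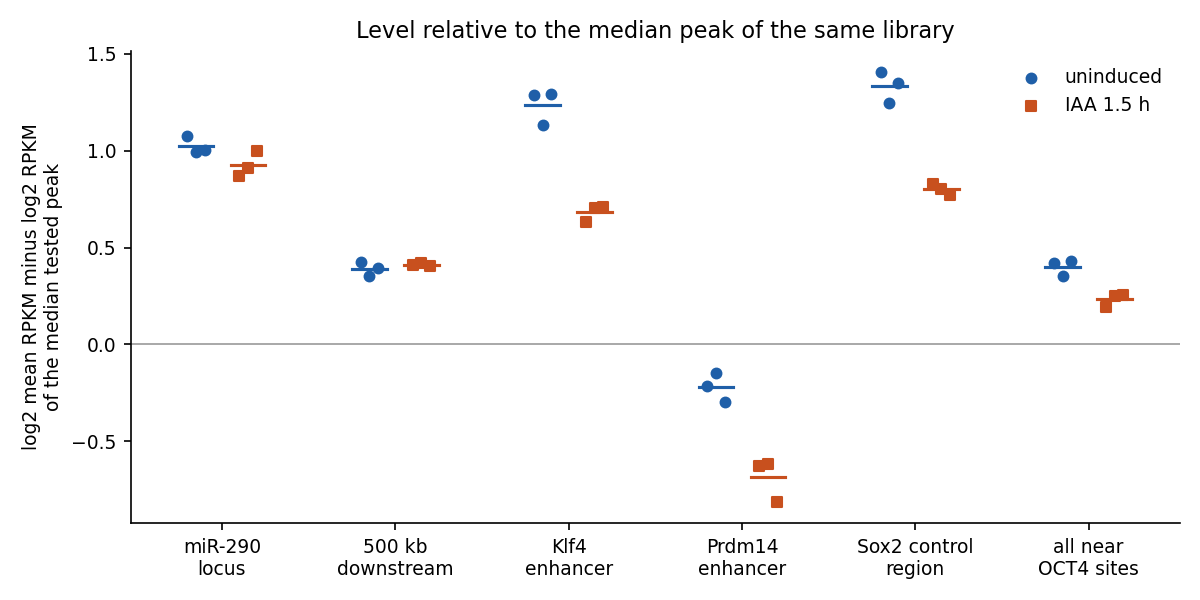
Log2 of the length-weighted mean RPKM minus that of the median tested peak, per library (points, 3 uninduced and 3 IAA), for the miR-290 locus and 5 comparison sets of peaks. The IAA values of the miR-290 locus (0.87 to 1.00) overlap its uninduced values (0.99 to 1.08) narrowly, through IAA replicate 3 only. The IAA values of the Klf4, Prdm14 and Sox2 regions, and of all tested peaks near OCT4 sites, lie below their uninduced values.

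A single pair of peaks shows the contrast with Klf4. The longest peak of the Klf4 distal enhancer measured 7.81, 7.23 and 7.37 RPKM before IAA, much like the cluster peak, and 3.56, 3.46 and 2.99 RPKM after it. The log2 difference, cluster peak minus Klf4 peak, was -0.01, 0.07 and -0.08 before and 0.71, 0.52 and 0.50 after IAA. It went from near 0 in all uninduced libraries to a clear excess of the cluster peak in all IAA libraries, a change of 0.58 (exact two-sided permutation p = 0.1, the smallest possible). Adjusted over the 2 pairs tested (AU018091 and Klf4), p was 0.1 for both. The Klf4 region was taken as plotted by the study, where its H3K27ac decreased in these same libraries, so its test is not independent support.

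The miR-302 genes, whose seed is shown above beside that of the cluster, lie under 1 H3K27ac peak with an OCT4 mark, chr3:127545059-127546338. This comparison was chosen after the values were seen, and no test of the difference is given. The miR-302 peak measured 2.10, 2.62 and 2.38 RPKM before and 0.917, 0.845 and 1.06 RPKM after IAA, a log2 change of -1.24 (limma adjusted p = 0.000237, and 0.0932 after centring). The cluster peak exceeded it by 1.84, 1.50 and 1.51 on the log2 scale before and by 2.55, 2.43 and 1.92 after IAA, with no overlap between the groups.

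Peaks at the starts of other genes of the miRNA pathway were called lower in part. Of 24 other miRNA genes known from ESCs, 10 had a peak within 1 kb, and these shared 5 peaks, of which 3 (60%, beside 68.2% of all tested peaks) were called lower and 0 higher. They were the miR-302 peak, the peak of Mir130a (-0.52, limma adjusted p = 0.00858) and the peak shared by Mir200c and Mir141 (-0.50, limma adjusted p = 0.0176). The peaks of Mir148a (-0.34, limma adjusted p = 0.104) and Mir17hg, the host gene of the oncogenic miR-17 cluster (-0.31, limma adjusted p = 0.154), did not pass the test. The median over the 5 was -0.50, and all 5 changes were negative.

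Of 21 genes of miRNA processing and silencing, 18 had a peak, and 20 of their 28 peaks were called lower, or 71.4% beside the 68.2% of all tested peaks. Their median log2 change was -0.53, and the changes ran from -0.85 to -0.11. Ago1, an Argonaute protein of the silencing complex, was at the lower end (-0.85, limma adjusted p = 0.00183), and Prkra, a partner of Dicer, was at the upper end, with neither of its 2 peaks passing the test (-0.11 and -0.44, limma adjusted p = 0.631 and 0.0834). Drosha, the nuclease that cuts hairpins from primary miRNA transcripts, was at -0.70 (limma adjusted p = 0.00357), and Trim71, itself a let-7 target in ESCs, at -0.78 (limma adjusted p = 0.00146). None of the 28 peaks had an OCT4 mark.

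Of 14 genes reported as targets of the miR-290 or miR-302 families, 8 had a peak, and 12 of their 14 peaks (85.7%, beside 68.2% of all tested peaks) were called lower, with a median log2 change of -0.62. All 4 peaks of Nr2f2, a nuclear receptor of differentiating cells, were called lower, and one of them had the largest fall of the list (-1.46, limma adjusted p = 0.00353). That peak measured 2.11, 2.55 and 1.58 RPKM before and 1.06, 0.231 and 1.12 RPKM after IAA. The size of its fall therefore leans on the low value of IAA replicate 2. Rbl2, a relative of the retinoblastoma protein and a repressor of cell cycle genes, had peaks at -0.79 and -0.55 (limma adjusted p = 0.00245 and 0.0304), and Casp2, an apoptotic protease, was at -0.76 (limma adjusted p = 0.00134). Cdkn1a, the inhibitor of the G1 to S transition, had 2 peaks, of which chr17:29090500-29092476 was called lower (-0.54, limma adjusted p = 0.00678) and chr17:29094002-29095471, at -0.34, did not pass the test (limma adjusted p = 0.0795). After centring, limma called 0 peaks of all 3 gene lists in either direction, and 1 of 5, 1 of 28 and 1 of 14 peaks had an unadjusted p under 0.05, beside 14.2% of all tested peaks.

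Sequence over the peaks was searched for the letters of motifs bound by pluripotency factors, on both strands of the GRCm38 reference and in the central 300 bases of each peak. The octamer ATGCAAAT, known from OCT4 and related factors, was in 0 of the 10 peaks, beside 1.13% of all tested peaks and 2.62% of those near OCT4 sites. The SOX core CATTGT was in the central bases of 1 of 10, the peak 25.1 kb upstream, beside 10.1% of all tested peaks. Outside its central 300 bases, the cluster peak also held SOX cores, beginning at 3218477 and 3219160. The joined form, TTGT and ATGCAAA with 1 base between, which contains most of the octamer, was in 0 of 10, beside 0.0265% of all tested peaks. The ESRRB-type TCAAGGTCA and the STAT-type TTCCNGGAA were each in 0 of 10, beside 0.839% and 1.25%. These shares say only which letters are in these windows.

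The one octamer between the first and last OCT4-marked peaks of the locus lay in the 576 bp gap before the peak with the largest fall, 150 bp from its edge. The octamer occurred at 0.378 per 10 kb in this span of 26430 bp, beside 0.913 per 10 kb over the genome. This search over the span was added after the peaks had been examined. The stretch chr7:3213765-3214064 (plus strand) shows the octamer in capitals and runs into the first bases of that peak:
octamer gap: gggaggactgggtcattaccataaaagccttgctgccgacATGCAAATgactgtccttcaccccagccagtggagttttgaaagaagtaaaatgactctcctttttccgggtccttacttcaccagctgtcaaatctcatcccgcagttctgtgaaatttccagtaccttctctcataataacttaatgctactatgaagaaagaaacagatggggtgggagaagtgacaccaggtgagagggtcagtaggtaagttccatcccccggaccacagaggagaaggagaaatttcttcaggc
The same span held 4 STAT-type matches, or 1.51 per 10 kb. Their density was 0.763 per 10 kb over the 65544 bp span of all 10 peaks and 0.262 per 10 kb over the genome. Of the 4 matches, 3 were within 1 kb of a peak of the locus and 0 inside one. Those beginning at 3194102, 3196024 and 3199053 have similar flanking bases. Whether they are copies of a repeated sequence was not tested, so the density may not count separate sites. The remaining match lay in the 327 bp gap between the peaks 18.1 and 16.4 kb upstream, 152 bp from the latter. The last 300 bases of that gap, chr7:3201336-3201635 (plus strand), are shown with this match and, near the 5′ end, a SOX core read on the minus strand in capitals:
STAT-type gap: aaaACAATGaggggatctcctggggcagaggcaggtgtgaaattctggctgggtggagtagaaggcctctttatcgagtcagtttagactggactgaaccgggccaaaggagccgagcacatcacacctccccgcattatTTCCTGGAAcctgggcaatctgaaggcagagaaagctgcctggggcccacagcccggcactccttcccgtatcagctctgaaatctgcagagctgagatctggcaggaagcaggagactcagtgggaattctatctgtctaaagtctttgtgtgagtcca
Over the span of all 10 peaks the octamer and the ESRRB-type each occurred at 0.458 per 10 kb, beside 0.913 and 0.218 over the genome. The narrower span held 0 ESRRB-type matches, and neither span held the joined form. The 10 peaks had a median GC content of 47.2%, beside 48.7% in peaks near OCT4 sites and 52.9% in all tested peaks. Their median share of soft-masked repeat bases was 17.0%, beside 15.5% and 9.19%.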

How the data were processed

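H3K27ac ChIP-seq of 6 libraries was used. Per the study's methods and the submitters' processing notes, the authors aligned reads to mm10 (GRCm38) with Bowtie2 2.3.4.3 and called peaks with MACS2 on the pooled uninduced reads. They deposited DiffBind RPKM values per library and condition. MACS2 and DiffBind versions are not given in the sources used here. The deposited pooled RPKM columns equal the mean of the 3 libraries.

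All RPKM values were whole multiples of 1 read (within 0.01), which gave depths of 31634480 to 39547452 reads and 36 to 73 reads in the median tested peak. Count models were not applied. The deposited RPKM values were modelled, although read counts can be recovered from them. Peaks of at least 0.5 RPKM in either pooled column were modelled in limma 3.58.1 under R 4.3.3 (trend and robust) after adding 0.1 and taking log2, with Benjamini-Hochberg adjustment over all 26457 peaks and a threshold of 0.05. The scripts were tested on simulated data without a shared shift. There limma without centring recovered 47 of 200 changes of 1 on the log2 scale (23.5%), with 3 false calls. The centred test was not simulated. Single pairs of peaks were compared by exact two-sided permutation.

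Genes are from GENCODE vM21. miRNA sequences and the start of D7Ertd143e are from RefSeq (GRCm38.p6), and Zcchc11 and Zcchc6 were matched as Tut4 and Tut7. The members, gene lists and comparison regions were chosen with earlier results of these data known. All peaks of the window are described, with every library's value for those near Mir290a, near AU018091, near OCT4 sites and at the extremes of change. Alternatives covered the pseudocount, threshold, scaling, limma options, replicate block and each library left out. Settings of the centred test, the motif search over the span and the miR-302 pair were added after seeing the data. RNA-seq and NANOG ChIP-seq were not analysed here.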

Additional observations from a re-analysis of the deposited data

How the results depend on the processing

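All 10 peaks were called lower by limma, and 10 were with the replicate number as a block. Same-numbered libraries did not deviate together from peak to peak (correlations -0.0143, -0.0910 and -0.0614). That measure cannot show a level shift shared by a pair. From replicate 1 to 3 the median log2 level fell in both groups (1.39, 1.37 and 1.30 uninduced, 0.95, 0.83 and 0.62 IAA). Pairing by number was thus not excluded, and the block changed no call. At an adjusted p under 0.01, 7 of 10 were called, and leaving out 1 library in turn gave 7 (without uninduced replicate 2) to 10. Centring on the median peak and quantile normalization each gave 0 of 10, with 2 at an unadjusted p under 0.05 in both (14.2% and 13.8% of all tested peaks), since these scalings remove the shift shared by all peaks. After centring, leaving out 1 library gave 0 to 1, the latter without IAA replicate 2. The log2 change of the length-weighted mean was -0.68, -0.10 after centring, and -0.73 to -0.62 with 1 library left out. The difference between marked and unmarked peaks changed by -0.08, by 0.0465 as a mean over peaks, and by -0.16 to 0.0497 with 1 library left out, reaching 0.0497 without IAA replicate 2. For the mean over peaks the cause was not tested. The cluster peak minus the AU018091 peak changed by 0.26 to 0.34 and minus the Klf4 peak by 0.52 to 0.62 with 1 library left out. Depth limits the 2 weakest peaks, which had 13 to 36 reads per library.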
